A study of Mus musculus with 45 samples.

Results

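Apolipoproteins are the protein components of plasma lipoproteins, and microsomal triglyceride transfer protein, encoded by Mttp, loads lipid onto apolipoprotein B as a particle is built. The genes described are Apob, Apoa1, Apoa2, Apoa4, Apoa5, Apoc1, Apoc3, Apoe, Apoh and Mttp, chosen by name, and the sites are the REV-ERBα peaks whose summit lay in the annotated span of one of them or within 50 kb of it. There were 32 such sites among the 27929 peaks of the ZT10 list and 0 among the 36 of the ZT22 list. They lay at 6 loci, because Apoa1, Apoc3, Apoa4 and Apoa5 form a cluster on chromosome 9 and Apoc1 and Apoe form another on chromosome 7.

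REV-ERBα is a repressive nuclear receptor of the circadian clock. Its sites were mapped by chromatin immunoprecipitation with sequencing (ChIP-seq) in mouse liver. The 2 lists come from mice of genotype REV-ERBa3HA/3HA, in which the receptor's own gene bears a 3HA tag. These mice were given no AAV virus, and the tagged protein was pulled down with Anti-HA Magnetic Beads. There were 4 samples at zeitgeber time 10 (ZT10, hour 10 of the light-dark cycle) and 4 at ZT22, pooled by the authors into 1 list per time. The other 37 of the 45 samples, untagged liver among them, were not analysed here, so how much of a peak depends on the tag was not tested. Strain of the tagged mice, age and sex are not given in the sources used here. With pooled samples there is no replicate spread, so no p-value was computed, and in whole liver more cells bound and more binding per cell cannot be told apart.

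The liver secretes triglyceride in very low density lipoprotein (VLDL), in which each particle is built on 1 molecule of apolipoprotein B. Smaller apolipoproteins that move between particles then set how fast the lipid is removed: some activate or inhibit lipoprotein lipase and others bind receptors or make up high density lipoprotein (HDL). REV-ERBα binds DNA at an AGGTCA core after A- and T-rich bases, and from earlier work Apoc3, Apoa1 and Apoa5 have been reported as genes that it represses in mouse, rat or human cells.

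The values used are the authors' own for each peak. Fold is the signal at the summit over the local background, and no peak of the ZT10 list was below 4.01. Fold was turned into a number of DNA fragments at the summit with the peak's −log10 p, giving 85 to 676 fragments at the 32 sites with a median of 229. All 32 came out within 0.1 of a whole number, but this is partly built in. Where local background was above the lowest, the solution nearest a whole number was taken. The worth of a fragment was itself set to make sampled peaks at the lowest background whole. Intervals on fragment counts are exact Poisson intervals at 95% and cover counting error only. Local background at the 32 sites was at most 1.45 times the lowest in the list.

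Gene starts that held a summit are shown first, since the peaks at these genes are described by their distance from them. RefSeq promoter windows on GRCm38.p6, the build also called mm10, run from 250 bases before a gene start to 50 bases after its first base, 300 bases in all. Windows were matched for 8 of the 10 genes, all except Apoc1 and Apoc3. The windows of Apoh, Apoa5 and Apoa4 held a ZT10 summit, and the outer window of Apoa2 is shown because it held both AGGTCA and AAGTCCA. Capitals mark letters matched on either strand. The searched letters were the core AGGTCA, the same core after a T, written TAGGTCA, the letters AAGTCCA, which belong to a form bound by the hepatocyte receptor HNF4, and the variant GGGTCA of the core. Printed windows are on the plus strand and read 5′ to 3′.
Apoh start, chr11:108395047-108395346: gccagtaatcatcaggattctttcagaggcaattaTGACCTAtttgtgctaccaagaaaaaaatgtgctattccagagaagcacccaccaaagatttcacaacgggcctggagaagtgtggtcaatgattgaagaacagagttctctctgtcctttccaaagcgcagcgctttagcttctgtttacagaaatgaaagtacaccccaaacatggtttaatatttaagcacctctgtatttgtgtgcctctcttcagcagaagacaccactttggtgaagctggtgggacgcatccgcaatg
Apoa5 start, chr9:46268358-46268657: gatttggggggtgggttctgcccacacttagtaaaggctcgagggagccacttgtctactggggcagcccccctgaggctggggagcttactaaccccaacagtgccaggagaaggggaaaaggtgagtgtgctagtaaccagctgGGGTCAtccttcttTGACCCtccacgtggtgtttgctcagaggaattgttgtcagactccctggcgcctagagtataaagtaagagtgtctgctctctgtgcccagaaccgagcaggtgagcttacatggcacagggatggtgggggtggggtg
Apoa4 start, chr9:46240594-46240893: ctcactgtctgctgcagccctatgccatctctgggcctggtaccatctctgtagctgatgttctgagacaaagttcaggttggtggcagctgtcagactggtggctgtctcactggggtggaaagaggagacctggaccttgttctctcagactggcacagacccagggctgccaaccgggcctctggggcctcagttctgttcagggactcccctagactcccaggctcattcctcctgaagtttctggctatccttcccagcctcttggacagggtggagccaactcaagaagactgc
Apoa2 outer start, chr1:171221314-171221613: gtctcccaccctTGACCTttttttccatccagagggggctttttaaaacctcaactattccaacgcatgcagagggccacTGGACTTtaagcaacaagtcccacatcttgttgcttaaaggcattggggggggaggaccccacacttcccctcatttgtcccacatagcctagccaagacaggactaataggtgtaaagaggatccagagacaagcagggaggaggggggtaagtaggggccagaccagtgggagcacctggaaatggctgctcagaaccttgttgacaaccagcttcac

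In the Apoh window TAGGTCA was read on the opposite strand from 215 to 209 bases before the start, and the summit lay 101 bases before it. TAGGTCA was in the windows of 2.74% of 17274 genes and AGGTCA in those of 16.6%. Among the 8 genes with windows, AGGTCA was found at Apoh and Apoa2 and TAGGTCA at Apoh. The Apoa5 window held no AGGTCA but 2 copies of GGGTCA, pointing at each other from 104 and 90 bases before the start, with the summit 118 bases before it. GGGTCA, a form added after the windows had been seen, occurred at 15.5% of genes and among these 8 at Apoa5 and at the outermost Apoe start. In the outer Apoa2 window AAGTCCA began 170 bases before the start, and it was also in the window of the inner Apoa2 start, against 4.58% of genes. The Apoa4 window, with its summit 36 bases before the start, held none of these letters. Tandem AGGTCA cores with a gap of 2 bases, written AGGTCANNAGGTCA, were in 0 of the 17274 genes' windows. A match describes the letters only.

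All 10 genes had a ZT10 summit within 50 kb, against 70.5% of the 21631 protein-coding genes of the autosomes and the X chromosome. The same count was 10 of 10 within 10 kb, where the share of all genes was 54.5%, and 7 of 10 within 2 kb, where it was 47.1%. Inside the span itself a summit was found at 4 of 10 genes, against 36.2% of all genes. Summits with a −log10 q of at least 10 were within 50 kb of 10 of 10, against 63.8%. The genes missing at 2 kb were Apoa1, Apoc3 and Apoc1, although the interval of a peak lay over each of them. A median gene of the 10 had 6 summits within 50 kb, and a median protein-coding gene had 2. Within 10 kb these medians were 1.5 and 1. At least 5 summits were found at 8 of the 10 genes and at 26.6% of all genes. The 8 are not separate cases, since Apoa1, Apoc3, Apoa4 and Apoa5 share sites, as do Apoe and Apoc1. Many of these genes, but not all, lie in crowded stretches. Windows of 50 kb around the 10 genes held 1 to 8 protein-coding genes with a median of 7, against a median of 4 over all genes. The count was 1 at Apob, 2 at Apoh and 4 at Mttp, and the windows of genes in a cluster overlap. Among 3169 genes with 7 or more in the window, a limit set after these values were known, 46.9% had at least 5 summits and the median was 4 summits. The 6 named genes with such windows, which share sites at 3 loci, all had at least 5.

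**Figure D1:**
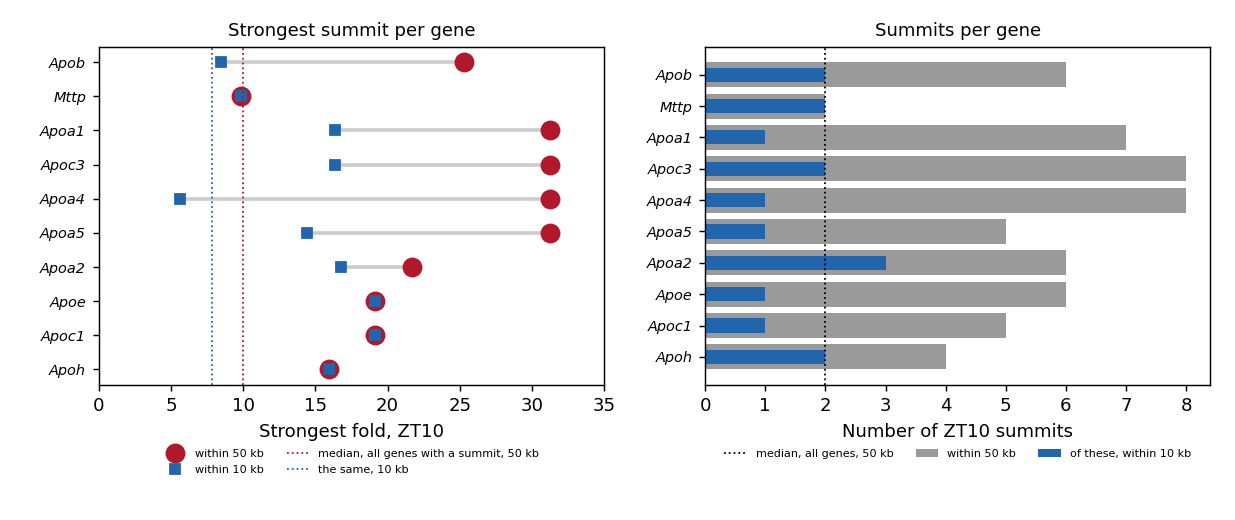
Left, fold of the strongest ZT10 summit of each gene within 50 kb (circles) and within 10 kb (squares), with dotted lines at the medians over all protein-coding genes that have a summit. Right, number of ZT10 summits within 50 kb (grey bars) and, of these, within 10 kb (blue bars), with a dotted line at the median over all genes. The circle at Mttp is at 9.84 and all others are at 15.95 or above; squares at Apob and Apoa4, at 8.46 and 5.61, stand far left of their circles.

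The median over the 10 genes of the strongest fold within 50 kb was 23.5, where all protein-coding genes with a summit had a median of 10.0. A strongest fold of at least 10 was found at 9 of the 10 genes and at 35.3% of all genes. Of genes with 7 or more genes in the window, 43.3% had a fold of at least 10, as did 6 of the 6 named genes among them. All 9 also had a fold of at least 15, which was found at 18.4% of all genes. Several of these values are 1 site read more than once: the 4 genes on chromosome 9 share their strongest site, and Apoc1 and Apoe share theirs. With each cluster counted once the median over 6 loci was 20.4. Within 10 kb the median of the 10 genes was 16.2, against 7.82 for all genes with a summit.

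Apob, the structural protein of VLDL, had 6 sites, all of which had Apob as the nearest protein-coding gene. Its span on chromosome 12 runs from 7977629 to 8016839, and it was the 1 gene in its window. The strongest site, from 7948534 to 7951563, had a fold of 25.3 with 546 fragments (501 to 594) and lay 27327 bp outside the span on the upstream side. That site was stronger than the strongest near 96.2% of protein-coding genes. Close to the start the signal was lower, with a summit of fold 8.46 and 180 fragments (155 to 208) lying 1142 bp downstream of the listed start, inside the gene. The other folds were 9.37 at 39764 bp and 4.28 at 19864 bp upstream, and 6.16 at 4223 bp and 8.78 at 21547 bp past the far end. The strongest site at Apob was thus a distant one, and its counting interval did not overlap that of the site at the start.

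Mttp, on chromosome 3 from 138089855 to 138143418, had the fewest sites, with 2, and the lowest strongest fold of the 10 genes. A site of fold 9.84 with 210 fragments (183 to 240) lay inside the gene, 11624 bp downstream of the start, in an interval of 7.54 kb. The second, of fold 5.71 with 165 fragments (141 to 192), lay 711 bp upstream of the start and inside Trmt10a, a neighbouring gene of a tRNA methyltransferase. Its interval overlapped both genes and the listed Mttp start. The strongest fold at Mttp was above that of 63.8% of protein-coding genes, and its number of sites above that of 42.8%. Of the genes for the proteins that build a VLDL particle, Apob had the higher strongest fold within 50 kb, 25.3 against 9.84 at Mttp. Within 10 kb and within 2 kb the order turned, with 8.46 at Apob and 9.84 at Mttp, and there the counting intervals of the 2 sites overlapped.

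**Figure D2:**
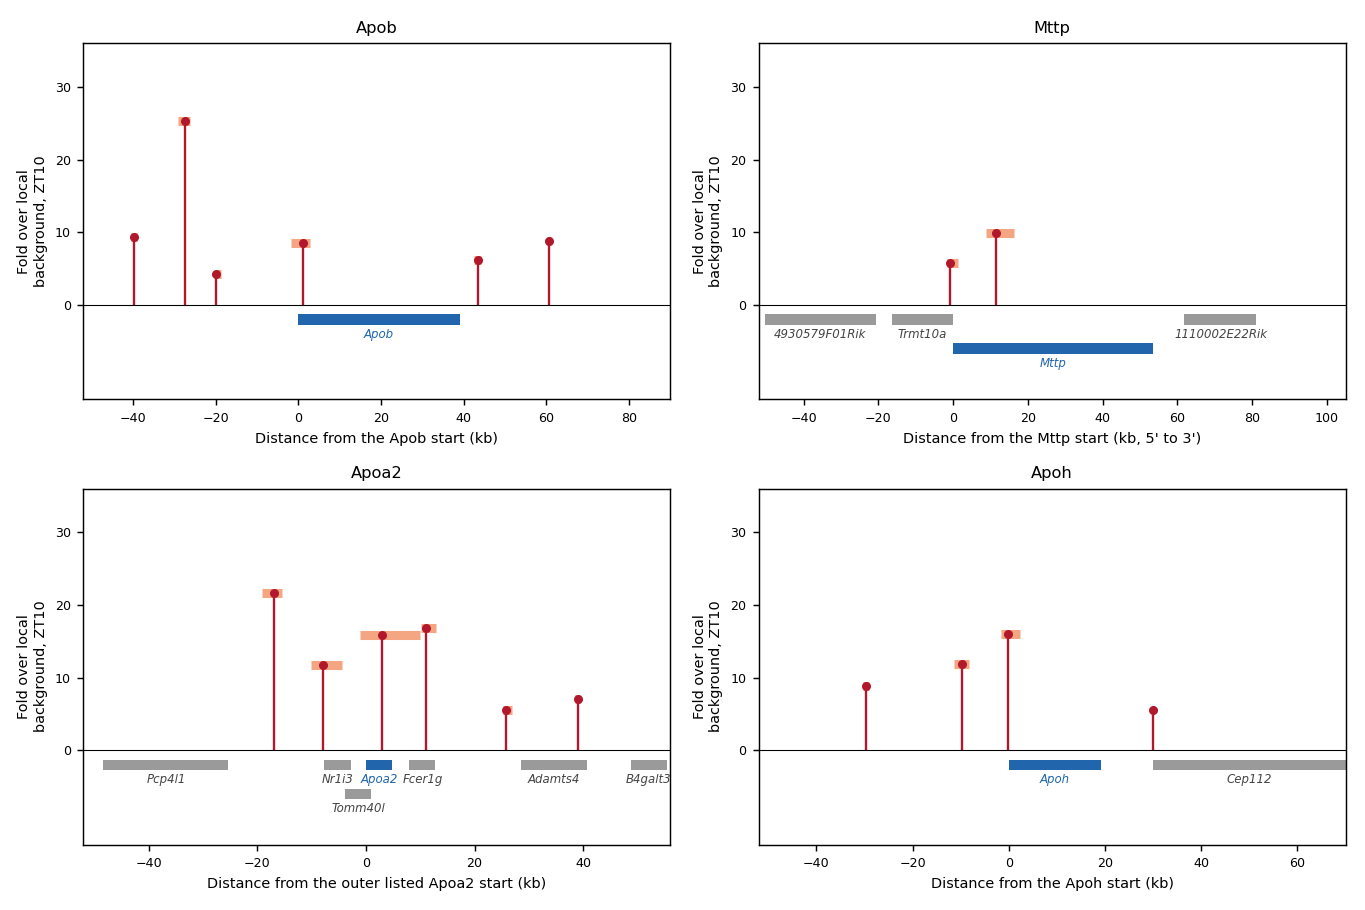
Sites at Apob, Mttp, Apoa2 and Apoh: height is the fold of the ZT10 summit, pale bars are the peak intervals, and blocks are spans of protein-coding genes (blue for the named gene, grey for others, with 1 neighbour not drawn) by distance from the listed start in kb, with Mttp drawn 5′ to 3′. The highest summit at Apob (25.3) stands 27327 bp outside the gene, while that at Apoh (15.95) stands at the start.

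Apoa1 encodes the main protein of HDL, Apoc3 an inhibitor of triglyceride clearance, Apoa4 a protein of chylomicrons and HDL, and Apoa5 an activator of lipoprotein lipase. Their spans lie within 43.3 kb of chromosome 9, from the start of Apoa1 at 46228630 to the end of Apoa5 at 46271921. There were 8 sites within 50 kb of at least 1 of them, and every one of these was within 50 kb of at least 2, while 4 were within 50 kb of all 4. This sharing follows from how close the genes lie. Within 10 kb, 2 of the sites were shared by 2 or more genes, and within 2 kb none was.

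The strongest site of all 32, on chromosome 9 from 46255354 to 46263702, lay between Apoa4 and Apoa5. It had a fold of 31.2 with 676 fragments (626 to 729), which ranked it 201 among the 27929 ZT10 peaks. Its summit was 13109 bp past the far end of Apoa4 and 12041 bp upstream of Apoa5, and no annotated protein-coding gene lay under its interval of 8.35 kb. The Apoa5 start had a summit of its own, 118 bp upstream, with a fold of 14.4 and 310 fragments (276 to 347). The interval of that site, 7.64 kb wide, held the whole of Apoa5 and reached into Zpr1, which encodes a zinc finger protein. At the Apoa4 start, the summit 36 bp upstream had a fold of 5.61 with 118 fragments (98 to 141). In this list the summit at the Apoa5 start held more fragments than that at the Apoa4 start, and the summit between the genes more than either. Counting intervals of these 3 sites did not overlap, but they hold no spread between the pooled samples.

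Apoa1 and Apoc3 lay together under 1 peak, from 46221389 to 46237708. This interval of 16.3 kb was the 49th widest in the ZT10 list, and its summit, of fold 16.4 with 352 fragments (316 to 391), was 4080 bp upstream of the Apoa1 start and 356 bp from the end of Sik3, which encodes a salt-inducible kinase. The list gives 1 summit per interval, so separate maxima at Apoa1 or Apoc3 are not resolved. A further 3 summits lay inside Sik3, with folds of 24.6, 12.7 and 8.98 at 12633, 21163 and 28666 bp upstream of Apoa1. The first of these, with 532 fragments (488 to 579), was the second strongest site of the cluster. On the other side, a summit of fold 4.22 lay 40 bp from Bud13, a splicing factor gene, and was the weakest of the 8. Peak intervals covered 59.8% of the 43.3 kb from Apoa1 to Apoa5.

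**Figure D3:**
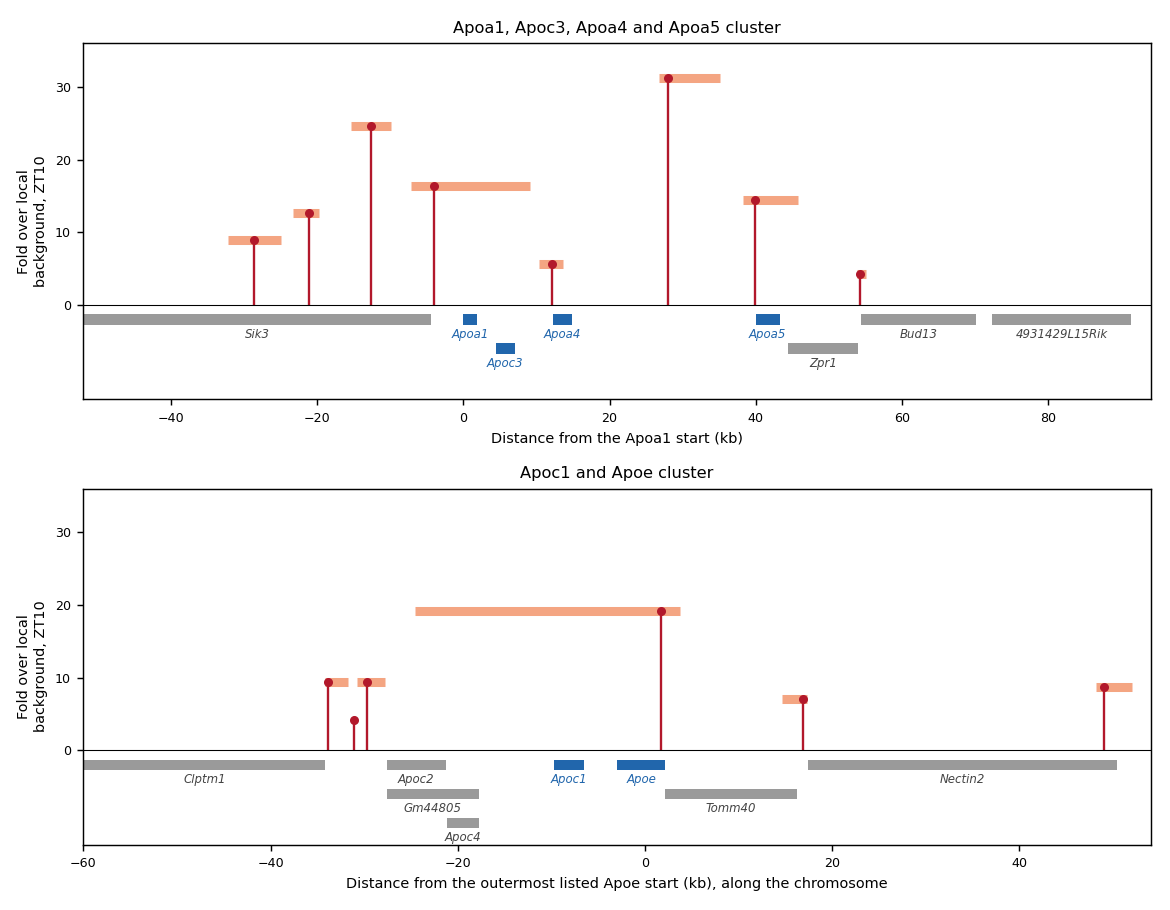
Sites in the clusters on chromosome 9 (top) and chromosome 7 (bottom), drawn as height for the fold of the ZT10 summit, pale bars for the peak intervals and blocks for spans of protein-coding genes (blue for the named genes, grey for others), by distance in kb from the start of Apoa1 and from the outermost listed start of Apoe. The top panel has its highest summit (31.2) between Apoa4 and Apoa5 and an interval of 16.3 kb over Apoa1 and Apoc3; the bottom panel has an interval of 28.3 kb that ends just past Apoe.

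Apoe encodes a ligand of lipoprotein receptors that carries remnants into the liver, and Apoc1 a small protein that slows their uptake. They lie on chromosome 7, Apoc1 from 19689480 to 19692659 and Apoe from 19696244 to 19701310. Both were inside 1 interval of 28.3 kb, from 19674585 to 19702922, the second widest of all 27929 ZT10 peaks. That interval also held Apoc4 and reached into Apoc2, the activator of lipoprotein lipase, and Tomm40, a gene of the mitochondrial import pore. Its summit, of fold 19.2 with 413 fragments (374 to 455), lay inside the annotated span of Apoe and 1754 bp upstream of the outermost listed Apoe start. It was 8283 bp from Apoc1.

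The cluster had 6 sites, of which 5 were within 50 kb of both Apoe and Apoc1. Besides the wide peak, folds were 9.37, 4.10 and 9.32 in the stretch between Clptm1 and Apoc2, 7.08 near Nectin2 and 8.74 inside Nectin2, which encodes an adhesion protein. The wide peak was thus the 1 site of the cluster with a fold of 10 or more. Within 10 kb it was also the only site of Apoe or Apoc1, and its fold of 19.2 exceeded the strongest within 10 kb of 95.3% of protein-coding genes.

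Apoa2, the second protein of HDL, lies on chromosome 1 from 171221564 to 171226379 among close neighbours, with 8 protein-coding genes in its window. Of its 6 sites, 4 had a fold above 10. The peak over Apoa2 itself, of fold 15.9 with 342 fragments (307 to 380), was 11.1 kb wide, ran from 171220485 to 171231544 and overlapped Tomm40l and Fcer1g. Its summit lay 2898 bp past the outer listed start and 592 bp upstream of the inner one. A stronger site, of fold 21.7 with 468 fragments (427 to 512), lay 17004 bp upstream of Apoa2. The nearest gene there was Pcp4l1, at 8292 bp, and the next site toward Apoa2, of fold 11.7, was 334 bp from Nr1i3, the gene of the xenobiotic receptor CAR. On the other side a site of fold 16.8 with 423 fragments (384 to 465) lay in Fcer1g, an immune receptor subunit gene. Farther on that side a summit in Adamts4 had a fold of 7.08.

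Apoh, which encodes beta-2-glycoprotein I, a phospholipid-binding plasma protein, had its strongest site at the start. It lies on chromosome 11 from 108395297 to 108414396 and had 4 sites. That site was 101 bp upstream, with a fold of 15.95 and 343 fragments (308 to 381), in an interval of 4.04 kb from 108393633 to 108397674. A site of fold 11.9 with 258 fragments (227 to 291) lay 9733 bp upstream of the gene. The other folds were 8.78, with Prkca as the nearest gene, and 5.57, inside Cep112. In contrast to Apob, whose strongest site was far upstream, Apoh had its strongest site within 200 bp of the start.

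Ranked by the fragments at the strongest site within 50 kb, the loci ran from the chromosome 9 cluster (676) through Apob (546), Apoa2 (468), the chromosome 7 cluster (413) and Apoh (343) to Mttp (210). Counting intervals overlapped between Apob and Apoa2, between Apoa2 and the chromosome 7 cluster, and between that cluster and Apoh. At this reach the chromosome 9 cluster was above the interval of every other locus and Mttp was below that of every other. Within 10 kb the order was different: Apoa2 (423) and the chromosome 7 cluster (413) came first, then the chromosome 9 cluster (352) and Apoh (343), and Mttp (210) and Apob (180) were lowest. There the interval of the chromosome 9 cluster overlapped those of Apoa2, the chromosome 7 cluster and Apoh, and the intervals of Mttp and Apob overlapped each other and lay below all others.

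Among the 8 genes with a listed start, 3 had a summit within 200 bp of it, at Apoa4, Apoa5 and Apoh, against 17.4% of 17274 genes. Within 2 kb there was one at 7 of the 8, against 37.9%, and Apoa1 was the gene without. A peak interval lay over a listed start at 8 of 8 genes, against 38.0%. The spans of Apoa1, Apoc3, Apoa5, Apoa2, Apoe and Apoc1 each lay wholly inside 1 peak, which held for 1.04% of all protein-coding genes. Short genes can be covered more easily, and of genes of at most 6 kb, a limit set after the lengths were known, this held for 6 of 7 here and for 3.82% of 5517. Apoa1 and Apoc3 lay under the same peak, as did Apoe and Apoc1, so the 6 genes are not separate cases.

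The sites were wider than the ZT10 list as a whole, with a median width of 3040 bp against 1679 bp. Intervals of at least 3 kb made up 17 of the 32 sites and 22.4% of all ZT10 peaks, and those of at least 8 kb 4 of the 32 and 2.58%. The 4 were the peaks at Apoe, at Apoa1 and Apoc3, at Apoa2 and between Apoa4 and Apoa5. How far width follows fold was not tested. Median fold was 9.34 at the 32 sites and 6.81 in the whole list, and 24 of the 32 were above 6.81.

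**Figure D4:**
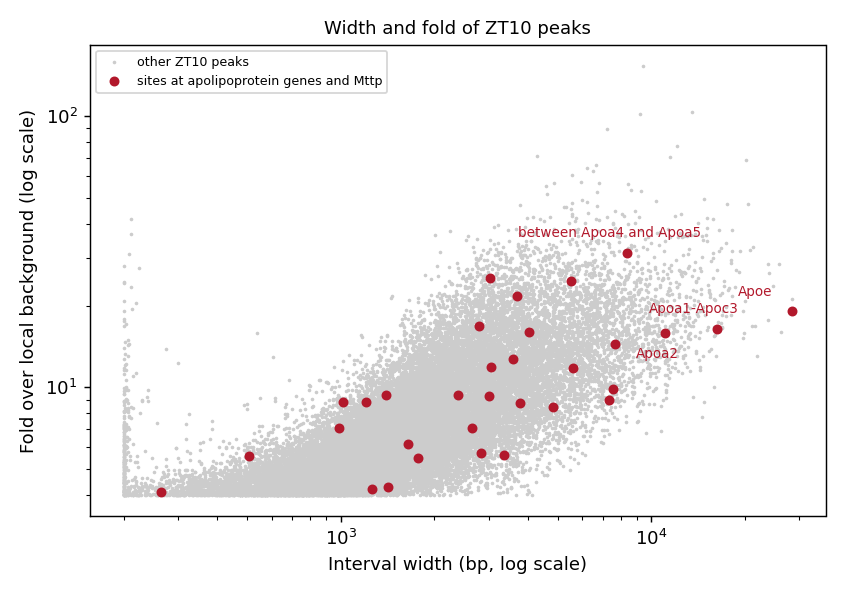
Width of each ZT10 peak interval in bp and its fold over the local background, both on log scales, with all other ZT10 peaks in grey and the 32 sites in red. The site at Apoe, 28.3 kb wide, is the farthest right of the red points but not the highest, and the site between Apoa4 and Apoa5 is the highest, with a fold of 31.2.

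By position, 4 of the 32 summits lay inside the span of a named gene, at Apob, Mttp, Apoa2 and Apoe, and 9 in the span of another gene. A named gene was the nearest protein-coding gene of 14 sites. Sik3 was the nearest of 4, Clptm1 and Nectin2 of 2 each, and those nearest to 1 each included Apoc2, Trmt10a, Bud13, Pcp4l1, Nr1i3, Fcer1g, Adamts4, Prkca and Cep112. Counting a site only for its nearest gene left 7 of the 10 genes with a site, against 46.7% of all genes. Those without were Apoa1, Apoc3 and Apoc1, although each lay under a peak.

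At ZT22 no summit was within 50 kb of any of the 10 genes, nor within 200 kb. The nearest ZT22 peak was 14614 kb from Apoa5 and farther from the other genes. Since 0.157% of protein-coding genes had a ZT22 summit within 50 kb, 0 of 10 is near the background and says nothing particular of these genes. The lowest fold in the ZT22 list was 4.08, so weaker signal at these sites would not be seen in it.

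Genes that work with these proteins also had ZT10 summits within 50 kb. All 14 genes of VLDL assembly and secretion had one, against 70.5% of all genes. The strongest were at Ces1d, a lipase that supplies lipid for VLDL (fold 32.8), A1cf, which guides the editing of apolipoprotein B mRNA (28.0), and Sar1b, a GTPase of the coat that carries lipoproteins from the endoplasmic reticulum (22.4). Their median strongest fold was 15.4, between the 10.0 of all genes and the 23.5 of the apolipoprotein genes and Mttp. The last value was 20.4 with each cluster counted once. Within 10 kb the medians were 14.25 for the VLDL list, 16.2 for the named genes and 7.82 for all genes with a summit. All 5 genes listed under HDL formation and remodelling had a summit. The strongest were at Scarb1, the HDL receptor (41.7), Abca1, which loads lipid onto apolipoprotein A-I (14.7), and Lcat, which esterifies its cholesterol (13.5). All 7 genes of lipoprotein receptors and their control had one, led by Lrp1, a receptor of remnants (20.9), and the heparan sulfate proteoglycan gene Sdc1 (19.5), with medians of 13.5 for the HDL list and 11.3 for the receptor list. Of 11 other apolipoprotein genes 9 had one, with folds down to 6.76 at Apom and 4.93 at Apod. Their median strongest fold was 19.2, with shared sites counted for each gene. That median is itself the fold of a site of the named genes, so it is not compared with theirs. The exceptions were Apoo and Apool, whose products are proteins of mitochondrial membranes. Apof and Apon shared a site of fold 21.7 and Apol9a had one of 20.2. The site of Apoc2 and Apoc4, of 19.2, is the wide peak at Apoe.

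Marker genes were used only to describe the labelled tissue. Of hepatocyte markers, 6 of 6 had a ZT10 summit within 50 kb, led by Cyp2e1 (31.8), Alb (23.7) and Hnf4a (23.5). Their median strongest fold was 20.1 and their median number of summits 7, close to the 20.4 of the 6 named loci and the 6 summits of a median named gene. Of 5 Kupffer cell markers, Clec4f, Vsig4, Cd5l, Timd4 and Marco, 0 had one. Enterocytes are the other main source of apolipoproteins, and 5 of the 6 genes listed as their markers had a summit, led by Vil1 (14.5), Fabp2 (12.5) and Cdx2 (10.7), with none at Sis. That list includes Apobr (5.29), which encodes an apolipoprotein B receptor of macrophages and is not a marker of enterocytes; without it the count was 4 of 5. Of 4 stellate cell markers 3 had one, at Pdgfrb (6.53), Des (5.34) and Reln (4.02), with none at Lrat. All of these marker lists are small, and no difference from the 70.5% of all genes is read from any of them.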

How the data were processed

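Peaks of 3HA-tagged REV-ERBα were deposited as 1 list per time, from 4 samples pooled by the authors, per the labels. The fold (a ratio to local background), −log10 p and −log10 q of each peak are as the authors deposited them, and their score column was not used. The submitters' processing notes name MACS2 2.1.2, BWA 0.7.17, SAMtools 1.9 and Picard 2.18.12 and the build mm10, without saying what each did. The control library and any filter on the lists are not given in the sources used here.

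Summits were set against 21631 protein-coding gene spans in a RefSeq table of GRCm38.p6, which matched every listed gene. Median strongest folds are over genes with a summit, and percentiles count genes without one as lowest. Pileup and background were solved from fold and −log10 p with a pseudocount of 1, a step tested on data simulated with the same formula. The simulation was given the true lowest background and the true worth of a fragment. How well these are estimated, and the formula itself, were not tested. A fragment was worth 0.236 of pileup, from 616 peaks at the lowest background, 4.14. Promoter letters were searched on both strands.

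Alternatives were reaches of 10 kb, 2 kb and the span only, −log10 q of 10 or more, the nearest gene only, each interval once and, at ZT22, 200 kb. Counting each cluster once, the GGGTCA letters, the order of loci within 10 kb, crowded windows and the enterocyte list without Apobr were added after the data were seen. All 10 genes are named, with the nearest genes of their sites and, of each other list, the 3 strongest genes and those with no summit. Not every gene this takes is reported here. Genes, lists and rules were chosen with earlier results of these data known. Python 3.11.15, pandas 2.3.3, NumPy 2.4.6, SciPy 1.17.1 and Matplotlib 3.10.9 were used.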

Additional observations from a re-analysis of the deposited data

How the results depend on the processing

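No paired analysis was possible because each list merges its 4 samples, and no single sample could be left out of it. The count of genes with a summit was 7 to 10 of 10 under every alternative except summits inside the span only, with 4. The 32 distinct sites fell to 13 within 10 kb, 8 within 2 kb, 4 inside spans and 14 with the nearest gene only, since each narrows what is counted, and to 29 with a −log10 q of at least 10. The median strongest fold of 23.5 became 16.2 within 10 kb, 14.4 within 2 kb, 15.95 with the nearest gene only and 20.4 with each cluster counted once. Shared sites on chromosome 9 numbered 2 within 10 kb and 0 within 2 kb, against 8, and those on chromosome 7 numbered 1 and 0, against 5. The strongest fold of 10 of the 10 genes did not move when −log10 q had to reach 10, and it was lower for 6 of them within 10 kb. The order of the loci by fragments differed within 10 kb: the chromosome 9 cluster was no longer first, and Apob instead of Mttp was last. No interval occurs on more than 1 row of the ZT10 list, so counting intervals once says nothing of stability. The weakest of the 32 sites held 85 fragments, and sites below the listing limit are not seen.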
